A study of Mus musculus with 2 samples.

Results

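Interferon-stimulated genes were examined in γδ T cells sorted from the lungs of uninfected mice, as a list of 36 gene symbols that code for antiviral effectors, GTPases, sensors, transcription factors and parts of the antigen processing machinery. Of the 36 symbols, 35 named a row among the 32285 genes of the count matrices, and Mx1, which named no row, was not analysed here. The rule that made the list used the gene symbols and no measured value, though earlier results of these data were known. Transcripts had been counted as unique molecular identifiers (UMIs, 1 per captured molecule) in single cells, with 1 library for each of 2 groups. WT cells came from C57BL/6NCrl mice and were γδ T cells negative for the Vγ1 chain, and the second library was of Vγ1+ cells from the strain B6.Cg-Tcrgtm1lku, which lacks Vγ4 and Vγ6 (Vγ4-/-/Vγ6-/-), and is called KO-labelled here because its Tcrg-V4 UMIs, given with the other chains, go against that label. Mice of both groups were 5 to 7 weeks old and untreated, and the number of animals behind each library was not stated. Genotype, sorted chain and library differ together between the groups and cannot be told apart. With 1 library per group no test was possible, so each ratio carries an exact interval that covers counting error only, without the spread between animals.

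As background, type I interferons act through IFNAR1 and IFNAR2 and the kinases JAK1 and TYK2, and induce genes through a complex that holds STAT2 and IRF9 and binds the interferon-stimulated response element. Interferon-γ acts through its own receptor and gamma-activated sequences, and Irf1 is one of its early targets. T cells also keep a basal level of many of these transcripts without infection. Ly6c2 codes for a surface protein that interferon is known to raise on T cells, and Tmem176b codes for a membrane protein known from IL-17-producing lymphocytes.

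The promoters of the members were read first, since they show which members carry the 2 classical elements. Windows of 250 bases before the start of transcription (RefSeq, build GRCm38.p6) were at hand for 29 of the 36 symbols. A core of the interferon-stimulated response element, read as GAAA, any 2 bases and GAAA again, on both strands and with overlapping matches counted, stood in at least 1 window of 14 of these 29 members (48.3%), against 3.46% of 27025 genes with a window. The letters TTCNNNGAA, a core of the gamma-activated sequence that reads the same on both strands, stood in 10 of 29 (34.5%), against 8.13% of genes. Both were found in Bst2, Gbp7, Igtp and Oas1a, and neither in 9 members, among them Irf7, Irf9, Tap1 and Psmb9. A match describes letters in the window and not a bound site. The windows of 4 members with the first element follow, chosen because their transcripts behaved differently in the comparisons described further on, with the matches in capitals. They lie at chr4:156200819-156201068 (minus strand) for Isg15, chr5:120907526-120907775 (minus strand) for Oas1a, chr19:34583279-34583528 (plus strand) for Ifit3 and chr11:58199306-58199555 (plus strand) for Igtp.
Isg15: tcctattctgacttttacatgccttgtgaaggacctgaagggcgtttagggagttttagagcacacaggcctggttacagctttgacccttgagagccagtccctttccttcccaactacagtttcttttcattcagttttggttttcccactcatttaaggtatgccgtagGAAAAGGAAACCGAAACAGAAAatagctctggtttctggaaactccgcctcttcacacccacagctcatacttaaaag
Oas1a: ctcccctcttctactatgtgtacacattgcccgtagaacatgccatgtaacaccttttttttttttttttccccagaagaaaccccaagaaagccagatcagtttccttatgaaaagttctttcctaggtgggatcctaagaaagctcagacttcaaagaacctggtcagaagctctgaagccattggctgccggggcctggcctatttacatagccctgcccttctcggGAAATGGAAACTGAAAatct
Ifit3: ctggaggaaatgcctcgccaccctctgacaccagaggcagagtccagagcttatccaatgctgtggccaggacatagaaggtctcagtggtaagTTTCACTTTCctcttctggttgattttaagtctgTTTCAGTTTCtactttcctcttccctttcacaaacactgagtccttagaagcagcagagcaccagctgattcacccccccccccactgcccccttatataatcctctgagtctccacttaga
Igtp: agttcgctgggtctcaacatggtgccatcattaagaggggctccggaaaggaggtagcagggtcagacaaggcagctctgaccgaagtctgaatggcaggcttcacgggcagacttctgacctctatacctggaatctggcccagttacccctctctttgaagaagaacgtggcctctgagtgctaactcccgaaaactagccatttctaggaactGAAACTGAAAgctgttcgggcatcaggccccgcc
In Isg15, 3 overlapping matches ran from 78 bases before the start, in Oas1a 2 overlapping matches from 20 bases, and in Ifit3 2 separate matches at 156 and 122 bases, while Igtp had 1 match at 34 bases. The Irf1 window, at chr11:53769764-53770013 on the plus strand, had no match of the first element and 1 gamma-activated sequence 90 bases before the start, which is in capitals here.
Irf1: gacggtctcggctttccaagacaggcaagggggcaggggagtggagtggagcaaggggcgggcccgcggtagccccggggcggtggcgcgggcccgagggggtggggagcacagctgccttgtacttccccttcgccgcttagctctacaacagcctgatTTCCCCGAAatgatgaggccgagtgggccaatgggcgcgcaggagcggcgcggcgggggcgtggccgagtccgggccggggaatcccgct
Between the libraries the median log2 ratio was 0.27 over the 14 members with the element and 0.35 over the 15 without. By Tmem176b detection in WT cells it was -0.49 and -0.55, and by Ly6c2 detection in KO-labelled cells 0.30 and 0.070. By Tmem176b detection in KO-labelled cells it was -0.43 and -0.49, and by Ly6c2 detection in WT cells 0.32 and 0.33. Between WT cells with only Tcrg-V6 and only Tcrg-V4 UMIs it was -0.42 (11 members) and -0.37 (13 members). The medians of the 2 sets were thus close except by Ly6c2 in KO-labelled cells, where 12 of 14 and 12 of 15 members were above 0.

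The cell filter of the study's methods left 2505 WT cells with 8971636 UMIs and 6634 cells with 25908306 UMIs in the other library, with medians of 3288 and 3521 UMIs per cell. The targeted chains were read first. Tcrg-V6 had 2906 UMIs in the WT library and 0 in the other, and Tcrg-V1 had 28.0 and 210.3 CPM (UMIs per 1000000 UMIs of the same cells). Tcrg-V4, however, had 1291 UMIs in 990 cells of the library labelled as lacking Vγ4, so each direction between the groups rests on the label of that library. Of the cells kept, 91.3% (WT) and 97.0% (KO-labelled) had a T cell marker. Other cell types differed between the libraries: the summed myeloid list was at 475.5 CPM in WT and 81.1 in KO-labelled cells, the B cell list at 108 and 42.9, the epithelial list at 393 and 25.3, and the list of IL-17 type genes at 1416 and 249.6. The plasmacytoid dendritic markers Siglech and Klk1 were at 0 in both. At least 2 myeloid or 2 B cell markers were found in 97 WT and 63 KO-labelled cells (3.87% and 0.95%), and each main value is given also without them where it moves. Genes of handling stress summed to 6617 and 5514 CPM, and Y-linked transcripts were found in 24.5% and 0.467% of cells. The part of these differences in the results was not tested, except where values within cells of 1 kind are given. All cells of the lung can transcribe the members at some level, so no cell type was present in which a share of cells could be read as background from free RNA.

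Interferon-stimulated transcripts were a small part of the RNA of both libraries and higher in the KO-labelled one. The 35 members together made up 0.266% of WT UMIs (23899 UMIs, 2664 CPM, 95% interval 2630 to 2698) and 0.342% of KO-labelled UMIs (88504 UMIs, 3416 CPM, 3394 to 3439), a log2 ratio of 0.36 (0.34 to 0.38). Of the 35, 31 had a ratio above 0, against 51.75% of the 12275 genes with at least 30 UMIs. The interval lay above 0 for 25, against 23.7% of these genes, and below 0 for 2, against 24.3%. The median member ratio was 0.35 and the median of all genes 0.017. A difference of at least 2-fold was found for 3 members, Oas1a, Ifit2 and Ifi27l2a, all higher in KO-labelled cells, against 2.94% of all genes, and for 0 members in the other direction, against 7.09%. At 1.5-fold 8 members were higher, against 8.6% of genes, and 0 lower, against 13.5%. Without cells holding myeloid or B cell markers the summed ratio was 0.42, with the same 3 genes past 2-fold (3.16% of genes). In the WT library, the members summed to 2685 CPM where Y-linked UMIs were found and 2658 where Xist alone was, with a log2 ratio of 0.015 (-0.032 to 0.061).

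**Figure D1:**
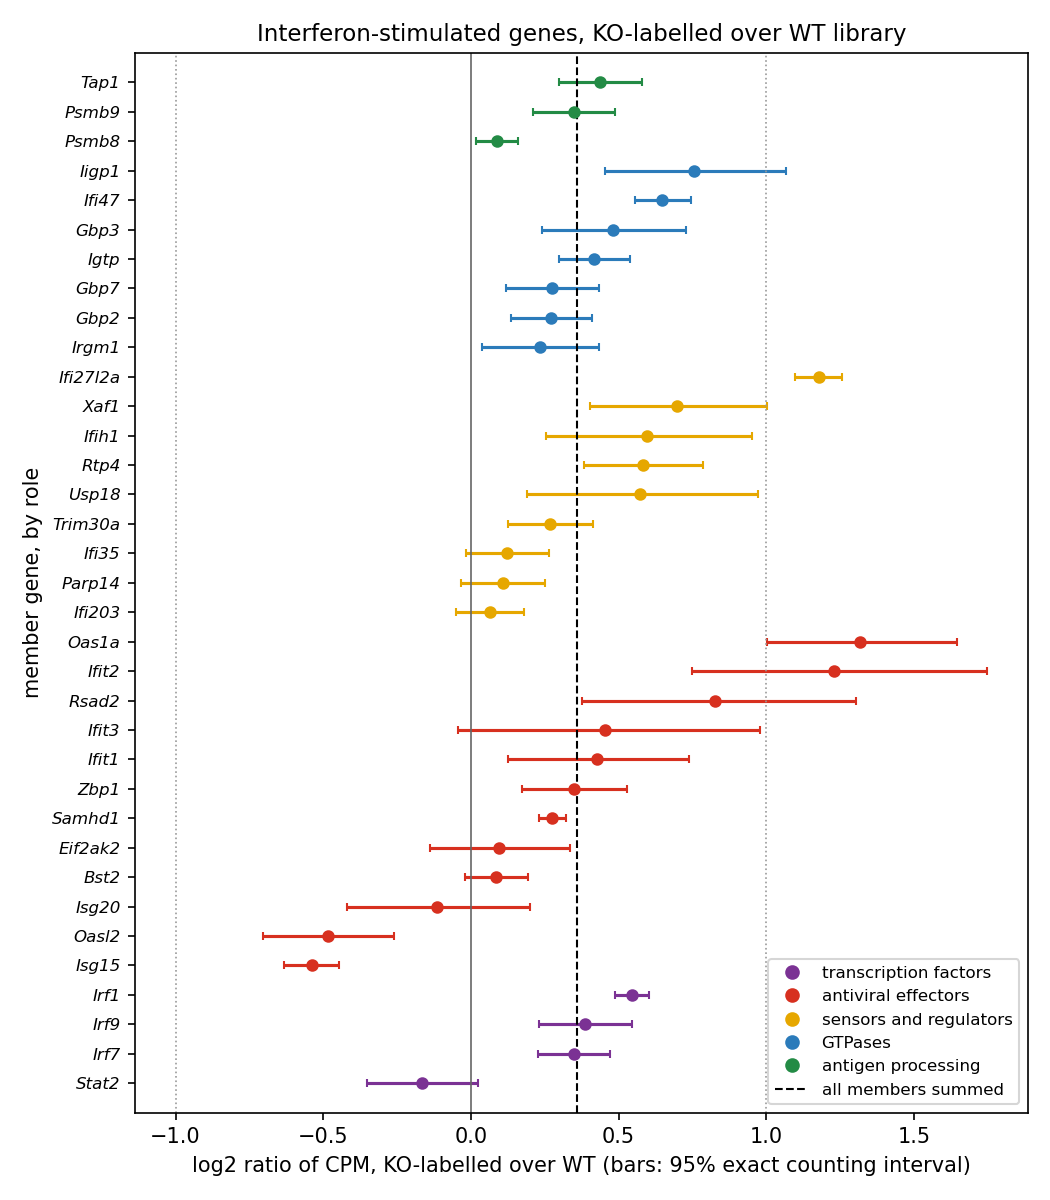
Level in KO-labelled cells relative to WT cells (log2 ratio of CPM) for each of the 35 members, grouped and coloured by role; bars are 95% exact counting intervals, the dashed line is the summed level (0.36) and dotted lines mark 2-fold. Points lie right of 0 for 31 members, and Isg15 and Oasl2 are the 2 with intervals wholly left of it.

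Among the transcription factors, Irf1 was at 338.6 CPM in WT and 494.2 in KO-labelled cells (log2 ratio 0.55, 0.49 to 0.60). Irf7, the regulator of interferon-α genes, was at 76.8 and 97.8 CPM (0.35), and Irf9, the DNA-binding part of the type I complex, at 46.5 and 60.8 CPM (0.39). Stat2, its partner, was at 36.1 and 32.2 CPM (-0.17, -0.35 to 0.024), so 3 of the 4 factors were higher in KO-labelled cells and Stat2 was not separated from 0 by its interval. The 4 together gave a log2 ratio of 0.46.

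The antiviral effectors went both ways. Oas1a, which makes the oligoadenylates that activate RNase L, was at 10.4 CPM (93 UMIs) in WT and 25.8 CPM (669 UMIs) in KO-labelled cells, a log2 ratio of 1.32 (1.0 to 1.65). Ifit2, of the family that binds foreign RNA, was at 4.46 and 10.5 CPM (1.23, 0.75 to 1.75), and Rsad2, which codes for viperin, at 5.35 and 9.50 CPM (0.83, 0.38 to 1.31). These 3 had few UMIs in the WT library and wide intervals. In the other direction, Isg15, a ubiquitin-like modifier, was at 156.9 CPM in WT and 108 in KO-labelled cells (-0.54, -0.63 to -0.45). Oasl2 was at 27.8 and 19.8 CPM (-0.48, -0.71 to -0.26) and the exonuclease gene Isg20 at 13.5 and 12.5 (-0.11, -0.42 to 0.20). Samhd1, which codes for the dNTP hydrolase that limits retroviruses, held 20.2% of all member UMIs in WT and 19.1% in KO-labelled cells and stood at 539.0 and 652.6 CPM (0.28, 0.23 to 0.32). Bst2, which codes for tetherin, was at 105.6 and 112.0 CPM with an interval that held 0. Ratios of the remaining effectors were 0.43 for Ifit1, 0.45 for Ifit3, 0.35 for Zbp1 and 0.096 for Eif2ak2, the RNA-dependent kinase. Of the 12 effectors, 6 had intervals above 0 and 2 below.

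Sensors and regulators showed the largest summed difference of the 5 roles, at 493.0 CPM in WT and 759.5 in KO-labelled cells (0.62, 0.58 to 0.67). Most of it came from Ifi27l2a, which codes for a small membrane protein and was at 167.0 and 377.4 CPM (1.18, 1.10 to 1.26). With each cell thinned to 2000 UMIs, Ifi27l2a was detected in 14.3% (WT) and 36.6% (KO-labelled) of cells. The DNA-sensor family gene Ifi203 was at 90.2 and 94.2 CPM (0.063, -0.052 to 0.18). Xaf1, Ifih1, Rtp4, Usp18 and Trim30a also had intervals above 0, which made 6 of 9 with Ifi27l2a, while those of Parp14 (0.11) and Ifi35 (0.12) held 0. All 7 GTPases, which act on vacuoles of intracellular microbes, had intervals above 0. Iigp1 was at 12.2 and 20.5 CPM (0.75, 0.45 to 1.07), Ifi47 at 122.7 and 192.3 (0.65, 0.55 to 0.74) and Igtp at 80.8 and 108 (0.42, 0.30 to 0.54). Gbp2, Gbp3, Gbp7 and Irgm1 had ratios between 0.23 and 0.48. In antigen processing, the immunoproteasome subunit Psmb8 was at 238.9 and 254 CPM (0.089, 0.018 to 0.16), and Psmb9 and the peptide transporter Tap1 had ratios of 0.35 and 0.44. Psmb9 and Tap1 overlap on opposite strands of chromosome 17, and no source used here says whether strand was used in counting, so reads in the overlap cannot be told apart.

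The same difference was seen when cells were counted. For this, UMIs were drawn down to 2000 in every cell, and 380 WT and 828 KO-labelled cells that were shallower were not used. At least 5 members were then detected in 580 of 2125 WT cells (27.3%, exact interval 25.4 to 29.2) and 2546 of 5806 KO-labelled cells (43.9%, 42.6 to 45.1). Without thinning the shares were 47.1% and 68.1%. The mean number of members per cell was 3.56 and 4.51 and the median 3 and 4, while the highest number was 24 in both. Most cells of both libraries thus had at least 1 member (95.3% and 98.4%), but single members were less widespread. In the WT library Samhd1 reached 53.4% of cells, Irf1 37.5% and Psmb8 34.7%, while Ifit3 reached 0.565% and Rsad2 0.659%. The KO-labelled values were 61.0%, 49.6%, 37.7%, 1.085% and 1.38%. The 10 members with most UMIs held 71.9% (WT) and 72.9% (KO-labelled) of member UMIs. The tenth of cells with the largest number of member UMIs held 31.3% of them in WT and 27.3% in KO-labelled cells. At least 10 members were detected in 70 WT and 280 KO-labelled cells, a limit chosen after the values were seen.

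**Figure D2:**
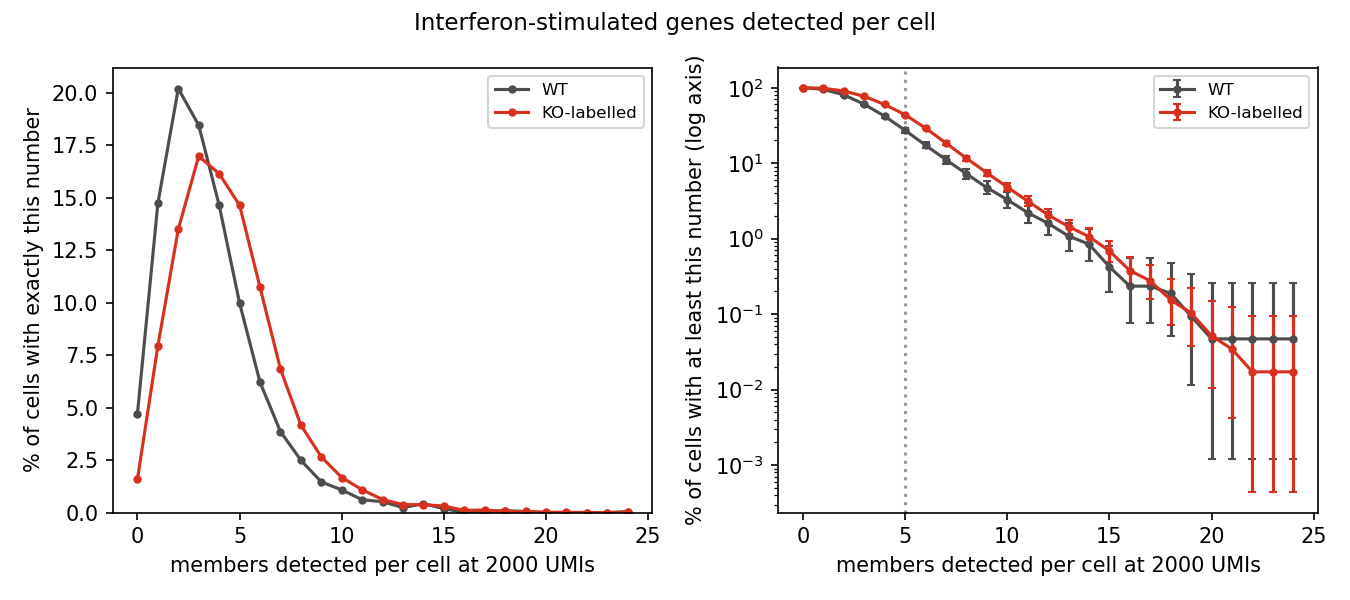
Number of members detected per cell after thinning to 2000 UMIs, as the share of cells with exactly that number (left, linear axis) and with at least that number (right, log axis, bars are exact 95% intervals). The KO-labelled curve lies to the right of the WT curve, with 43.9% against 27.3% of cells at 5 or more (dotted line), and both end at 24.

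Cells were then grouped by the Tcrg-V gene for which they had UMIs, to compare the libraries within cells of 1 detected gene. These classes describe detected transcripts and not the chain on the cell surface. In the KO-labelled library, sorted as Vγ1+, 48.9% of cells had no Tcrg-V UMI. Its cells with only Tcrg-V4 UMIs can therefore not be taken as cells of that chain. In the WT library the 410 cells with only Tcrg-V4 were at 3000 CPM (2916 to 3087), the 520 cells with only Tcrg-V6 at 2070.0 (2007 to 2134), and the 84 with only Tcrg-V1, which the sort should have left out, at 3203 (3013 to 3402). Cells with no Tcrg-V UMI, 43.7% of the library, were at 2888 CPM, and cells with several at 2492. In the KO-labelled library the 2128 cells with only Tcrg-V1 were at 3395 CPM (3358 to 3432), the 364 with only Tcrg-V4 at 3056 (2967 to 3148), and the 3245 with none at 3546. The lowest class was WT Tcrg-V6, and no KO-labelled cell had Tcrg-V6 alone. The intervals of WT Tcrg-V1 and WT Tcrg-V4 cells overlapped.

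Within Tcrg-V4 and Tcrg-V1 cells, the classes large enough to compare members, the summed levels of the libraries were closer than over all cells. Between Tcrg-V4 cells the summed log2 ratio, KO-labelled over WT, was 0.027 (-0.033 to 0.086), and between Tcrg-V1 cells it was 0.084 (-0.0046 to 0.17). In the Tcrg-V4 comparison 31 members had enough UMIs, and 7 had intervals above 0 against 13% of genes and 2 below against 9.96%. Oas1a was the 1 member past 2-fold, at 10.7 CPM in WT and 30.4 in KO-labelled Tcrg-V4 cells (1.5, 0.66 to 2.40), against 2.35% of genes. Ifi27l2a was at 227.4 and 357.2 CPM (0.65, 0.45 to 0.85) and Irf1 at 361.9 and 453.9 (0.33, 0.16 to 0.49). Against them, Samhd1 was at 782.6 and 585.9 CPM (-0.42, -0.55 to -0.29) and Isg15 at 193.3 and 97.4 (-0.99, -1.29 to -0.70). So in Tcrg-V4 cells single members differed in both directions, and their sum depended on which cells were counted. Without cells holding myeloid or B cell markers (10 WT and 4 KO-labelled cells) the Tcrg-V4 sums were 2886 and 3057 CPM, a ratio of 0.083 (0.022 to 0.14) beside a median of all genes of 0.088. Then Oas1a, Ifi27l2a (166.4 and 353.6 CPM, 1.09) and Xaf1 were at least 2-fold higher in KO-labelled cells (2.52% of genes), and Isg15 and Rsad2 (23 and 7 UMIs) at least 2-fold lower (3.01%). The Tcrg-V1 ratio without such cells was 0.077 (-0.014 to 0.17). Smaller classes did not follow this: cells with only Tcrg-V5 were at 2447 CPM in WT (49 cells) and 3980 in KO-labelled cells (29 cells), a ratio of 0.70 (0.51 to 0.90). Cells with only Tcrg-V7 (32 and 16) had a ratio of 0.26 (0.020 to 0.50) and those with only Tcrg-V3 (13 and 82) one of 0.22 (-0.010 to 0.45). KO-labelled Tcrg-V1 cells exceeded WT Tcrg-V4 cells by 0.18 (0.13 to 0.22) and WT Tcrg-V6 cells by 0.71 (0.67 to 0.76), with 4 of 35 members at least 2-fold higher in the first (4.41% of genes) and 16 of 35 in the second (10.8% of genes). By the share of cells with at least 5 members, however, WT and KO-labelled Tcrg-V4 cells were at 28.3% (23.9 to 33.1) and 39.1% (33.7 to 44.6), and Tcrg-V1 cells at 46.8% (35.5 to 58.4) and 43.2% (41.0 to 45.4).

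**Figure D3:**
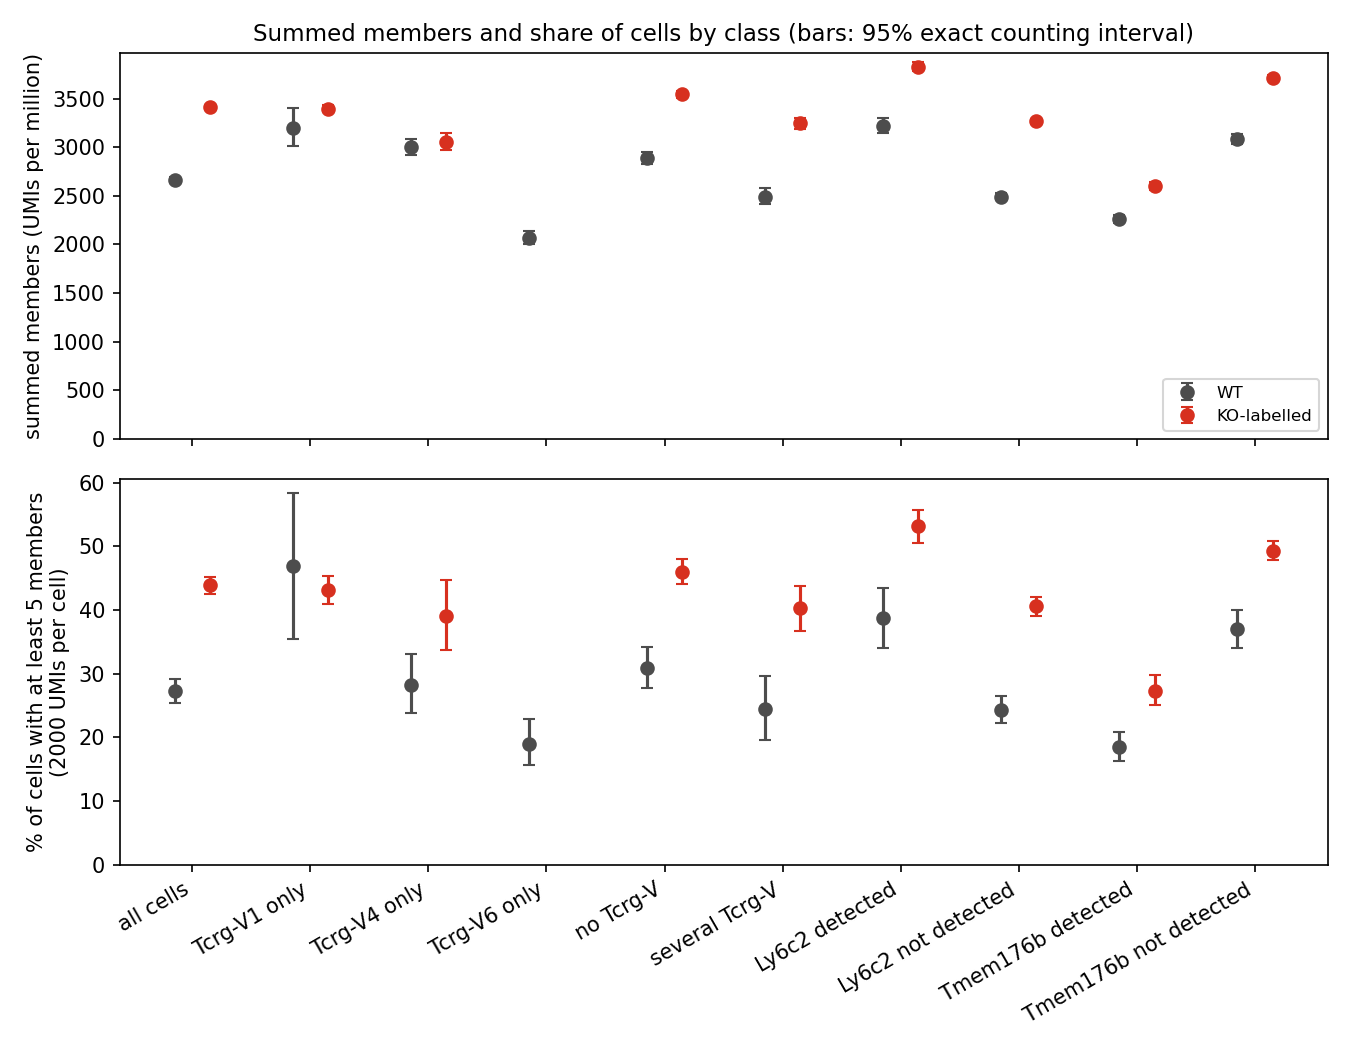
Summed members in CPM (top) and share of cells with at least 5 members at 2000 UMIs per cell (bottom) by class of cell, in the WT (grey) and KO-labelled (red) libraries; bars are 95% exact counting intervals and both axes start at 0. The WT cells with only Tcrg-V6 are lowest at 2070.0, Tcrg-V4 cells of both libraries are level at 3000 and 3056, and cells with Tmem176b lie below cells without it in both libraries.

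Within the WT library, Tcrg-V6 cells had fewer interferon-stimulated transcripts than Tcrg-V4 cells, with a log2 ratio of -0.54 (-0.60 to -0.48). Of 28 members with enough UMIs, 10 were above 0, against 48.26% of genes, and 18 below. Intervals lay below 0 for 14, against 14.7% of genes, and above 0 for 3, against 15.4%. Lower by at least 2-fold were 8 members, against 5.29% of 8133 genes, and higher by as much were 0, against 5.15%. Ifi27l2a was at 33.3 CPM in Tcrg-V6 and 227.4 in Tcrg-V4 cells (-2.77, -3.17 to -2.39). Samhd1 was at 318.7 and 782.6 CPM (-1.30, -1.44 to -1.16), Ifit1 at 7.07 and 18.9 (-1.42, -2.45 to -0.46) and Rtp4 at 11.6 and 28.4 (-1.29, -2.08 to -0.54). Without Samhd1, the member with most UMIs, the summed ratio was -0.34. Some GTPases and the antigen processing genes were higher in Tcrg-V6 cells: Igtp was at 120.7 and 62.5 CPM (0.95, 0.61 to 1.30), Irgm1 at 33.3 and 22.1 (0.59, -0.020 to 1.23), Tap1 at 66.2 and 45.5 (0.54, 0.12 to 0.98) and Psmb8 at 293.4 and 214.8 (0.45, 0.25 to 0.65). By role, the sensors and regulators summed to -1.23 and the antiviral effectors to -0.92, against 0.44 for antigen processing. The GTPases summed to 0.13 (-0.023 to 0.29), with Ifi47 at 94.4 and 121.9 CPM against the direction of Igtp. Without cells holding myeloid or B cell markers the sum was -0.48 and 5 members were 2-fold lower (4.76% of genes). Among cells with a Tmem176b UMI the sum was -0.31 (458 and 168 cells), but 13 of 24 members were above 0, against 53.85% of genes. The median member ratio there was 0.18. Igtp, Irgm1 and Tap1 were at least 2-fold higher, and Ifi27l2a and Samhd1 at least 2-fold lower. The share of all genes past 2-fold in these cells was not at hand, so these calls cannot be set against it. Among cells without a Tmem176b UMI the sum was -0.016 (62 and 242 cells, -0.15 to 0.11). The median cell was not level there, with member shares of 0.141% of UMIs in Tcrg-V6 and 0.262% in Tcrg-V4 cells.

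Cells in which Tmem176b was detected had fewer interferon-stimulated transcripts in both libraries. WT cells with a Tmem176b UMI (1176 cells) were at 2262 CPM (2218 to 2306) and those without (1329 cells) at 3083 (3031 to 3135), a log2 ratio of -0.45 (-0.48 to -0.41). In the KO-labelled library 1522 cells with and 5112 without were at 2602 CPM (2564 to 2640) and 3716 (3689 to 3744), a ratio of -0.51 (-0.54 to -0.49). At least 5 members were detected in 18.5% and 37.0% of WT cells and in 27.4% and 49.3% of KO-labelled cells, although the cells with Tmem176b were the deeper ones, with medians of 3564 against 2997 UMIs in WT and 4189 against 3330. Over all genes the median ratio was -0.14 in WT and -0.079 in KO-labelled cells, and the summed ratios less these medians were -0.31 and -0.44. Handling genes were higher in cells with Tmem176b in both libraries, at 7836 against 5346 and 6796 against 5042 CPM, and their part in the result was not tested.

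In WT cells, intervals lay below 0 for 25 of 35 members against 30.7% of genes, and 9 members were at least 2-fold lower against 8.64% of genes. Usp18, the brake on the type I receptor, was at 3.50 CPM with and 12.1 without Tmem176b (-1.79, -2.69 to -0.96), Ifi27l2a at 78.2 and 259.5 (-1.73, -1.91 to -1.56), Ifit3 at 2.40 and 7.06 (-1.55, -2.70 to -0.52) and Rsad2 at 2.84 and 7.97 (-1.49, -2.53 to -0.53). In KO-labelled cells, intervals lay below 0 for 26 of 35 against 28.8% of genes, and 7 members were at least 2-fold lower against 5.57% of genes. The lowest were Ifi27l2a at 166.5 and 455.1 CPM (-1.45, -1.54 to -1.36), Ifi47 at 96.1 and 227.8 (-1.25, -1.37 to -1.13), Rtp4 at 22.2 and 48.9 (-1.14, -1.39 to -0.89) and Xaf1 at 10.9 and 23.9 (-1.13, -1.50 to -0.78). Irf1 was past 2-fold in both libraries, at 221.3 and 460.9 CPM in WT (-1.06) and 284.9 and 571.2 in KO-labelled cells (-1.0). Members at the upper end were also shared in part. Isg15 was higher with Tmem176b at 179.8 against 133.2 CPM in WT (0.43, 0.28 to 0.59) and 147.7 against 93.3 in KO-labelled cells (0.66, 0.55 to 0.77). Oasl2 was at 31.0 and 24.4 CPM in WT (0.35, -0.024 to 0.72) and at 35.9 and 13.9 in KO-labelled cells (1.36, 1.11 to 1.62), where it was the 1 member at least 2-fold higher, against 7.08% of genes. Psmb8 (0.31 and 0.13) and Isg20 (0.25 and 0.55) completed the 4 highest in WT, and the same 4 genes were highest in KO-labelled cells.

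The difference by Tmem176b was present in the sums of classes with 1 Tcrg-V gene detected. It was -0.48 in WT Tcrg-V4 cells (2422 against 3373 CPM), -0.78 in WT Tcrg-V6 cells (1948 against 3335), -0.56 in KO-labelled Tcrg-V1 cells (2561 against 3773) and -0.49 in KO-labelled Tcrg-V4 cells (2347 against 3302). The exception was WT Tcrg-V1 cells, with 17 cells at 3518 and 67 at 3108 CPM (0.18, -0.026 to 0.38). Summed over cells, those without Tmem176b had 3335 and 3373 CPM in the Tcrg-V6 and Tcrg-V4 classes of the WT library. The Tcrg-V4 class of the KO-labelled library had 3302. The median WT Tcrg-V6 cell did not differ by Tmem176b, with member shares of 0.141% of UMIs without and 0.144% with it. Their 90th percentiles were 0.736% and 0.402%, so the difference lay in the upper cells. The median WT Tcrg-V4 cell without Tmem176b was at 0.262%. Without cells holding myeloid or B cell markers the ratio by Tmem176b was -0.52 in both libraries, and 14 members in WT cells were at least 2-fold lower (8.31% of genes) in place of 9.

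Detection of Ly6c2 went with more interferon-stimulated transcripts, but this depended on which cells were compared. WT cells with Ly6c2 (458) were at 3219 CPM (3143 to 3296) and those without (2047) at 2490 (2453 to 2528), a ratio of 0.37 (0.33 to 0.41). KO-labelled cells with (1617) and without (5017) were at 3830 CPM (3784 to 3876) and 3267 (3242 to 3293), a ratio of 0.23 (0.21 to 0.25). At least 5 members were detected in 38.7% and 24.4% of WT cells and in 53.1% and 40.6% of KO-labelled cells, with median depths of 4214 against 3129 and 3631 against 3476 UMIs before thinning. In the WT library 29 of the 458 Ly6c2 cells held 2 myeloid or B cell markers, and the myeloid list was at 1535 CPM with Ly6c2 and 143.5 without. Without such cells the WT ratio was 0.19 (0.14 to 0.23) and the KO-labelled one 0.22 (0.20 to 0.24). When cells with Tmem176b were left out as well, the WT ratio turned to -0.16 (2835 against 3167 CPM, -0.21 to -0.11) and the KO-labelled one was 0.077 (3862 against 3662 CPM, 0.054 to 0.099). In these cells the median of all genes was -0.20 and -0.11, so that relative to it the members were at 0.037 and 0.18. The WT median lay within the interval of the WT sum, so the WT members were not separated from it.

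Among the members, 6 were at least 2-fold higher with Ly6c2 in WT cells, against 3.61% of genes, and 17 intervals lay above 0, against 10.9%. Ifit3 was at 14.9 and 1.46 CPM (32 and 10 UMIs, 3.35, 2.29 to 4.54), Oas1a at 25.2 and 5.71 (2.14, 1.52 to 2.78), Ifi27l2a at 353.2 and 108.6 (1.70, 1.55 to 1.85) and Zbp1, a sensor of Z-form nucleic acids, at 68.2 and 27.4 (1.32, 0.99 to 1.64). In the WT cells without Tmem176b or myeloid and B cell markers, Ifi27l2a was level at 217.0 and 206.7 CPM, and Ifit3 was the 1 member past 2-fold (20 and 10 UMIs), against 1.22% of genes. In KO-labelled cells 0 members were past 2-fold, against 1.49% of genes, and 22 of 35 intervals lay above 0, against 8.84%. The highest were Usp18 at 17.1 and 9.39 CPM (0.86, 0.51 to 1.21), Ifit3 at 9.35 and 5.35 (0.80, 0.33 to 1.27), Ifi47 at 252.3 and 170.8 (0.56, 0.48 to 0.65) and Tap1 at 102.2 and 69.4 (0.56, 0.42 to 0.69). At the lower end Samhd1 was below 0 in both, at 487.8 and 555.1 CPM in WT (-0.19, -0.29 to -0.087) and 591.6 and 674.6 in KO-labelled cells (-0.19, -0.24 to -0.14). Ifit1 was at -0.29 and -0.28 with intervals that held 0. The remaining low members differed between the libraries: Igtp (-0.65) and Isg15 (-0.22) in WT, and Oasl2 (-0.29) and Rsad2 (-0.25), with intervals that held 0, in KO-labelled cells. Against the all-gene medians of -0.093 and -0.087 the summed ratios were 0.46 and 0.32.

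**Figure D4:**
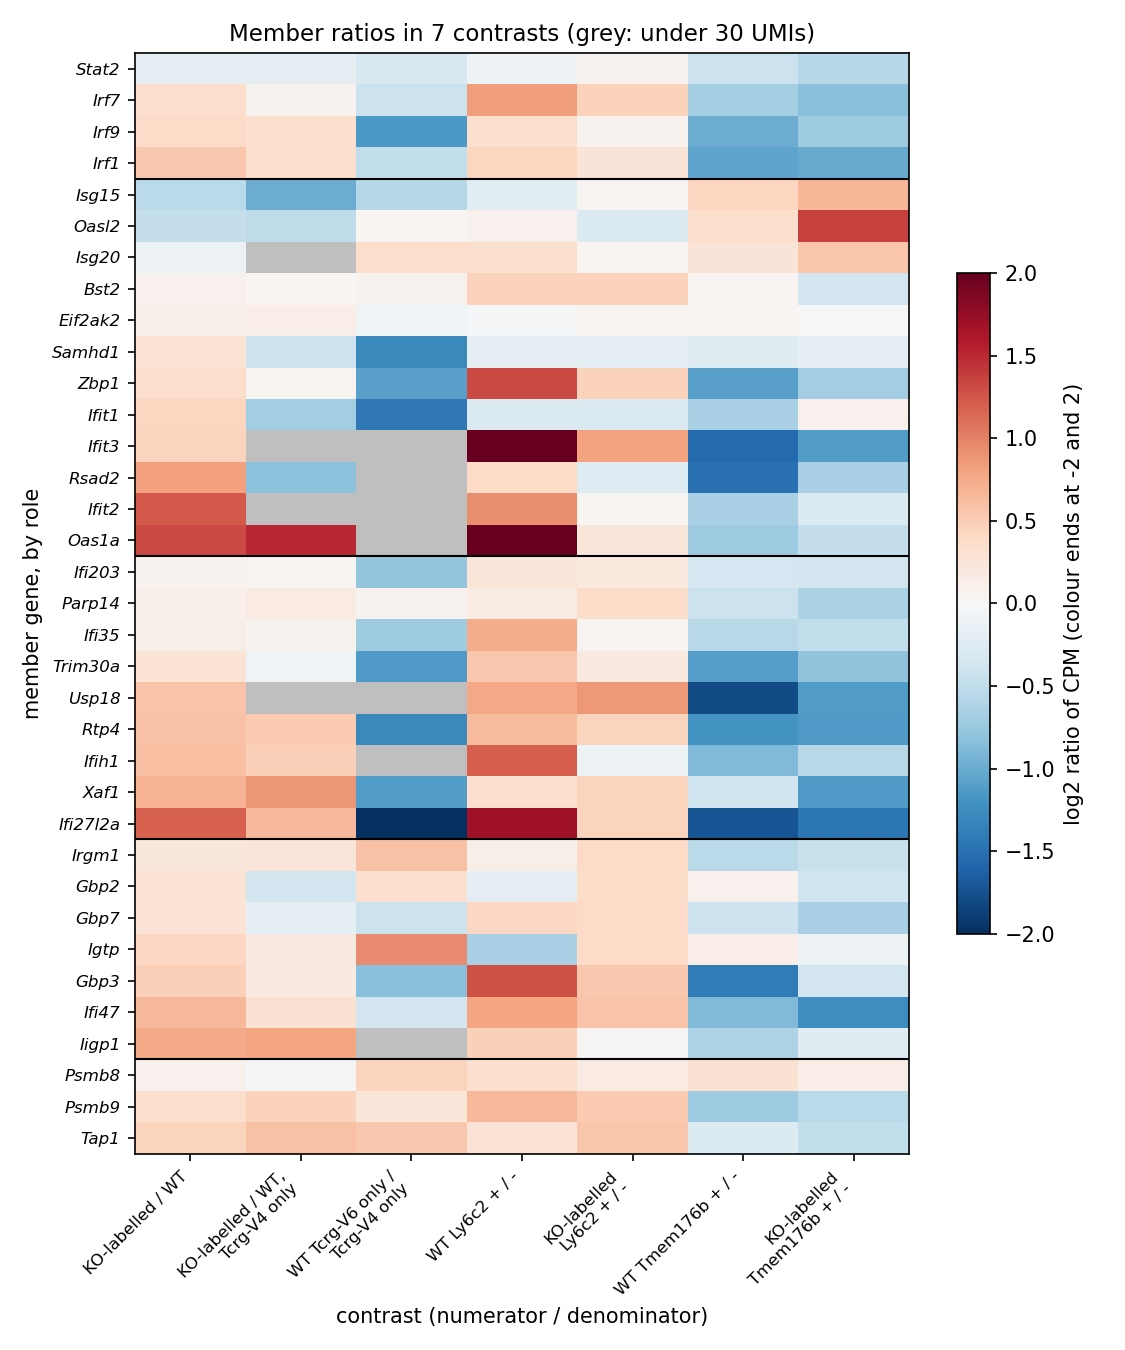
Log2 ratio of CPM for each of the 35 members (rows, by role) in 7 contrasts (columns), with red for higher and blue for lower in the first-named cells, colours ending at -2 and 2, and grey for members with under 30 UMIs in the 2 groups together. The Tmem176b columns are mostly blue in both libraries, with Isg15 and Oasl2 red, and the Tcrg-V6 column is blue for Ifi27l2a (-2.77) and Samhd1 (-1.30) and red for Igtp (0.95).

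Splitting cells by both genes gave the levels of 4 classes. Cells with neither were at 3145 CPM in WT (925 cells) and 3650.0 in KO-labelled cells (3664 cells), a ratio of 0.21 (0.18 to 0.25). Cells with Ly6c2 alone were at 2990.0 and 3860.0 (0.37, 0.33 to 0.41), and cells with Tmem176b alone at 2077 and 2450.0 (0.24, 0.20 to 0.28). Cells with both were at 4245 (54 cells) and 3626 (169 cells), but 15 of the 54 WT cells held myeloid or B cell markers, and without these the values were 2787 and 3575. In each library the cells with Tmem176b alone were the lowest class. The WT library held 44.8% such cells and the KO-labelled one 20.4%, and among cells without myeloid or B cell markers the library ratio was 0.29 with Tmem176b and 0.30 without it.

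Cells with at least 5 members were then described by genes outside the list, which did not enter their choice. In the WT library, at 2000 UMIs per cell, Tcrg-V6 was detected in 20.5% of them and in 31.5% of cells with fewer members, Tmem176b in 27.6% and 48.8%, and Ly6c2 in 24.3% and 14.6%, without overlap of the exact intervals. In the KO-labelled library Tmem176b was at 11.2% and 25% and Ly6c2 at 26.2% and 18.6%, while Tcrg-V1 was at 28.8% and 31.3%. In the few cells with at least 10 members this held in part: in WT (70 cells) Tcrg-V6 was at 28.6% against 28.5% in the rest, Ly6c2 at 18.6% against 17.2% and Tmem176b at 30% against 43.5%. In KO-labelled cells (280) Tcrg-V1 was at 33.6% against 30%, Ly6c2 at 30.4% against 21.5% and Tmem176b at 10.7% against 19.4%. At the limit of 5 members, Il17a was detected in 8.62% and 20.1% of WT cells and in 0.432% and 2.55% of KO-labelled cells. Ifng was detected in 2.93% and 2.52% of WT cells (intervals 1.72 to 4.65 and 1.80 to 3.43) and in 4.05% and 3.47% of KO-labelled cells (3.31 to 4.88 and 2.86 to 4.15). By UMIs Ifng was lower in WT cells with at least 5 members, at 15.3 against 24.4 CPM (-0.67, -1.24 to -0.15), and level in KO-labelled cells at 24.1 and 23.0 CPM (0.067, -0.17 to 0.31). Depth was alike, with medians of 3647 and 3522 UMIs in WT and 3661 and 3801 in KO-labelled cells.

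Other interferon-inducible genes were higher in the same cells. Of 46 listed genes known to respond to interferon and not among the members, 37 had enough UMIs in WT and 23 were at least 2-fold higher in cells with at least 5 members, against 3.24% of genes. In KO-labelled cells 16 of 39 were, against 1.03% of genes. The ratio was above 0 for 36 of 37 and 39 of 39, against 53.99% and 52.92% of genes, with medians of 1.19 and 0.89. Over all genes outside the list, the 10 highest in KO-labelled cells included Ifit3b (64 and 11 UMIs, 2.91), Gbp10 (2.57), Tgtp1 (129.9 and 25.7 CPM, 2.34) and the GTPase-like genes Gm4951 and Gm4841. The others were the immunoglobulin segments Igkv3-2 and Igkv3-4, the T cell receptor segment Trav4-3, and Slc11a1 and Muc6. In WT cells they were the immunoglobulin segments Iglv1, Igkv3-7 and Igkv3-2, the myeloid genes F13a1, Fn1, Vcan, Sirpb1c and Apoc2, Ifi204, and Cxcl9, a chemokine induced by interferon-γ. In the WT library 6.21% of cells with at least 5 members held myeloid or B cell markers, against 2.46% of the others, and in the KO-labelled library 0.825% against 0.920%. Without such cells the 10 highest in WT were Gbp10 (4.38), Cxcl9 (43 and 6 UMIs, 4.27), Cxcl10 (200.1 and 22.7 CPM, 3.14), Tgtp1 (155.0 and 20 CPM, 2.95), Serpina3f, Tgtp2, Gbp6, Oasl1, Slfn5 and Gbp5, and 20 of 36 listed inducible genes were past 2-fold, against 1.8% of genes.

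Some members were detected more often in cells that held certain others. Cells thinned to 2000 UMIs were used for this. Iigp1, an immunity-related GTPase gene like Igtp, was detected in 7.14% of WT cells with Igtp and 0.848% of those without. In KO-labelled cells it was at 9.05% and 1.55%. Irgm1 was at 17.2% and 4.56% with and without Igtp in WT and at 13.9% and 4.92% in KO-labelled cells. Rsad2 and Ifit3 went with Ifit1, with Rsad2 at 12.5% (6 of 48 cells) and 0.385% in WT and 10.9% (15 of 137) and 1.15% in KO-labelled cells. Irf1 also went with Iigp1 (3.02% and 0.677% in WT, 4.45% and 1.02% in KO-labelled cells), so Iigp1 was not particular to Igtp. These pairs rest on few cells, and they describe joint detection within 1 library each.

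Of the interferon pathway around the members, 7 ligand genes were read. Ifnb1, Ifna1, Ifna2, Ifna4, Ifnl2 and Ifnl3 had 0 UMIs in both libraries, which does not show that they were absent. Ifng had 194 UMIs in WT (21.6 CPM) and 632 in KO-labelled cells (24.4 CPM), a log2 ratio of 0.17 (-0.060 to 0.41). Ifng was much higher in cells with Ly6c2, at 68.2 against 7.03 CPM in WT (3.28, 2.80 to 3.78) and 54.0 against 13.8 in KO-labelled cells (1.98, 1.74 to 2.21). It was lower in cells with Tmem176b, at 8.96 against 34.8 CPM in WT (-1.96) and 17.8 against 26.8 in KO-labelled cells (-0.59).

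Receptor chains were present in both libraries. Ifnar1 was at 95.3 CPM in WT and 130.0 in KO-labelled cells (0.45, 0.34 to 0.56), Ifnar2 at 82.9 and 100.2 (0.27), Ifngr1 at 1812 and 1952 (0.11), Il10rb at 51.5 and 54.9 (0.093, -0.059 to 0.25) and Ifngr2 at 132.0 and 101.7 (-0.38, -0.48 to -0.28). Ifnlr1, the chain particular to interferon-λ, had 1 UMI in each. Ifngr2 went against the members in both splits. It was lower with Ly6c2, at 54.7 against 156.2 CPM in WT (-1.51) and 51.1 against 119.8 in KO-labelled cells (-1.23), and higher with Tmem176b, at 167.1 against 95.4 (0.81) and 142.7 against 86.6 (0.72). The kinases were all higher in KO-labelled cells, with Jak1 at 711.7 and 859.3 CPM (0.27), Jak2 at 35.6 and 47.2 (0.41) and Tyk2 at 17.1 and 20.7 (0.28). Jak1 was lower with Tmem176b by nearly the same ratio in both libraries, at 529.2 against 901.9 CPM in WT (-0.77) and 567.0 against 966.9 in KO-labelled cells (-0.77). Among 41 other inducible genes with enough UMIs, 36 had a ratio above 0 between the libraries, against 51.75% of genes, and the median was 0.29. At least 2-fold higher in KO-labelled cells were Ifit1bl1 (15 and 202 UMIs, 2.22) and Oasl1 (72 and 489 UMIs, 1.23), against 2.94% of genes. At least 2-fold lower was Ifi204 (43 and 10 UMIs, -3.63), against 7.09% of genes. Of its 43 WT UMIs, 40 were in cells with Ly6c2. Ifi204 was among the 10 highest genes in WT cells with at least 5 members (40 and 3 UMIs). Without cells holding myeloid or B cell markers it was not among them, and its library ratio without such cells was not computed.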

How the data were processed

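Single-cell RNA was sequenced from γδ T cells sorted from mouse lung, 1 library per group. The deposited matrices hold raw UMI counts per gene and cell that the authors made with Cell Ranger (7.0.0 per the file headers, 7.0 in the submitters' processing notes and an older release in the methods) on mm10. The methods describe a 5′ V(D)J kit and a label a 3′ one. Annotation release, intron counting and strand setting were not given in the sources used here.

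Cells with over 200 and under 4000 genes and under 10% mitochondrial UMIs were kept, following the methods. No doublet caller was run, and cells with at least 2 myeloid or 2 B cell markers were counted and left out as an alternative. There were 0 columns of other samples, and 23 barcodes occurred in both libraries.

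UMIs were summed over cells and scaled per 1000000. Ratios carry exact conditional 95% intervals, sums exact Poisson intervals and shares Clopper-Pearson intervals, all for counting error only and with cells taken as fixed. No test was made. Genes with at least 30 UMIs over both groups were compared, a difference of at least 2-fold was called, and a group at 0 was set to a floor of 3 UMIs. Detection per cell used UMIs thinned to 2000 per cell (seed 1). On simulated counts for the comparison of libraries, over 12277 genes, 100% of 4-fold changes were recovered and 95.5% of intervals held the true value. The counts were drawn as Poisson, as the intervals assume, and without clustering in cells. The simulation therefore checks the computation and not the spread of the data or smaller changes.

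Named are the 10 members with most UMIs, the 5 highest and 5 lowest between libraries, the 4 highest and 4 lowest of each split, the ligands, receptor chains and kinases, and the 10 leading genes outside the list in cells with at least 5 members. The members, lists and splits were chosen with earlier results of these data known. Reads shared between near-identical members of the Ifit, Oas, Gbp and immunity-related GTPase families may be lost or split. Promoters are RefSeq windows on GRCm38.p6, and 35 of 35 members matched GENCODE M21 by gene ID. Python 3.11.15, numpy 2.4.6, scipy 1.17.1, pandas 2.3.3 and matplotlib 3.10.9 were used. Alternatives changed the cell filter, scaling, thinning depth, number of members and the cells entering each split, and several were added after the values were seen.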

Additional observations from a re-analysis of the deposited data

Results flagged for a closer look

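Igtp, which codes for an immunity-related GTPase, moved in opposite directions with Ly6c2 in the 2 libraries. Its log2 ratio, cells with Ly6c2 over cells without, was -0.65 (-0.94 to -0.36) in WT and 0.38 (0.26 to 0.50) in KO-labelled cells. Among cells without Tmem176b and without myeloid or B cell markers it was -0.76 in WT (56.4 against 95.3 CPM) and 0.36 in KO-labelled cells (130.2 against 101.8 CPM). Isg15 did the same in those cells, at -0.66 in WT (99.4 against 156.9 CPM) and 0.24 in KO-labelled cells (104.7 against 88.7 CPM). The members together were at -0.16 and 0.077 there, but the median of all genes was -0.20 and -0.11. Relative to it they were at 0.037 in WT and 0.18 in KO-labelled cells. The WT median lay within the interval of the WT sum (-0.21 to -0.11), so only the KO-labelled sum was separated from its median. What drew attention is that the counting intervals lay on opposite sides of 0. Only the members were searched for this. The share of all genes with such intervals was not computed, so it is not known whether members do this more often than other genes. With 1 library per group the difference between the libraries was not tested.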

How the results depend on the processing

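No paired analysis was possible because a single library stood for either group. Of the alternative values of the main results, 23 stayed within their counting intervals, 36 moved and 1 reversed, and of those for single members 68 stayed and 2 moved, Oas1a to 1.85 and Ifi27l2a to 1.61 between the libraries without cells holding myeloid or B cell markers. The library ratio (0.36) was 0.42 without those cells, 0.41 as a mean per cell, 0.027 in cells with Tcrg-V4 alone and 0.084 in cells with Tcrg-V1 alone (0.083 and 0.077 when cells with the markers were also left out), and 0.22, 0.70 and 0.26 in the few cells with Tcrg-V3, Tcrg-V5 or Tcrg-V7 alone. By Ly6c2 in WT (0.37) the value was 0.42 with no cell filter, 0.19 without myeloid or B cell markers, 0.46 scaled by the median gene, 0.32 as a mean per cell, 0.50 without Samhd1 and 0.32 with detection after thinning. It reversed to -0.16 without Tmem176b and those markers. In KO-labelled cells (0.23) it was 0.32 scaled by the median gene, 0.32 without Samhd1, 0.21 after thinning and 0.077 without Tmem176b and those markers. By Tmem176b in WT (-0.45) the value was -0.52 without the markers, -0.31 scaled by the median gene, -0.50 without Samhd1, -0.51 after thinning and -0.61 without Ly6c2 and the markers. In KO-labelled cells (-0.51) it was -0.44 scaled by the median gene, -0.48 as a mean per cell, -0.60 without Samhd1, -0.57 after thinning and -0.58 without Ly6c2 and the markers. Tcrg-V6 over Tcrg-V4 (-0.54) was -0.47 as a mean per cell, -0.34 without Samhd1 and -0.31 in cells with Tmem176b. The ratio of the shares with at least 5 members (1.61) was 1.36 at 3000 UMIs, 1.45 with no thinning and 1.43 for at least 4 members. At 1.5-fold 8 members were higher (8.6% of genes) in place of 3. By Tmem176b in WT 14 members were 2-fold lower without the markers in place of 9. Where fewer cells enter, the alternative's own construction changes the cells, and for the other shifts the cause was not tested. Leaving out a replicate was not possible with 1 library per group. Members with under about 100 UMIs, such as Ifit2, Ifit3, Rsad2 and Usp18 in WT, have intervals over 0.5 wide on the log2 scale, and intervals hold no spread between animals.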
